A study of Mus musculus with 15 samples.

Results

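The Th1 lineage genes described here are 10 genes chosen by their mouse symbols from the 55421 genes of the count files: Ifng, Ccl5, Cxcr3, Il12rb1, Il12rb2, Stat4, Tbx21, Eomes, Runx3 and Hlx. All 10 were found by symbol. The rule names symbols and uses no measured value, but the list was drawn up with earlier results of these data known. They were followed in CD4+ T cells from a T cell transfer colitis model, in which naive donor cells (CD4+ CD25- CD44- CD62L+) were injected into Rag2-/- mice. Donors of the strain C57BL/6 were homozygous for a floxed Prkaa1 allele, the gene of the AMPKα1 catalytic subunit, and the KO donors also carried CD4-Cre, whereas the WT donors carried the floxed alleles without Cre. After 6 weeks the transferred cells were recovered from spleen and mesenteric lymph nodes (mLN), which gave 4 WT spleen, 4 KO spleen, 3 WT mLN and 4 KO mLN samples. CD4-Cre acts from the CD4+ CD8+ thymocyte stage on, so Prkaa1 was lost in the donor T cells before transfer, while all cells of the recipients kept it. Rag2-/- hosts have no T or B cells of their own but keep NK and myeloid cells.

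Th1 cells are the CD4+ T cells that make interferon-γ and act against intracellular pathogens. In textbook form, IL-12 binds a receptor made of IL-12Rβ1 and IL-12Rβ2 and activates STAT4, T cell receptor and interferon-γ signals induce T-bet (Tbx21), and T-bet together with Runx3, Hlx and, in some cells, Eomes drives Ifng, Cxcr3 and Ccl5. In transfer colitis the disease is driven by donor CD4+ T cells, many of which acquire a Th1 or Th17 program in the host.

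Reads counted on genes ranged from 9363940 to 11283439 per sample (median 10545309), and levels are given as CPM (the count divided by this total, scaled to 1000000 reads). Differences were tested over all genes that passed edgeR's filter on low counts with edgeR's quasi-likelihood test, and a gene was called at an adjusted p-value (Benjamini-Hochberg over all genes tested) under 0.05. Log2 fold changes are given with their standard error (SE). Prkaa1 separated the genotypes in both organs, at 46.3 to 54.1 CPM in WT and 18.4 to 21.7 CPM in KO spleen and at 49 to 60.9 CPM in WT and 21.4 to 32.2 CPM in KO mLN. The 10 T cell markers summed to 7890 to 10300 CPM over the samples, and the 2 CD8 T cell markers to 1.61 to 28.2 CPM. The WT samples numbered 4 stood apart for the genes described here: in spleen and in mLN alike, replicate 4 was the lowest of its group for the same 7 of 10 genes (Ifng, Ccl5, Cxcr3, Il12rb1, Il12rb2, Tbx21 and Eomes) and the highest for Stat4 and Hlx. KO samples numbered 2 were the lowest of their group for 5 of 10 genes in each organ. For the 10 genes, fold changes between genotypes and between WT organs without the WT samples numbered 4 stand beside those that include them. Medians, marker sums and the genes of other lists are given with these samples included.

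The promoters of the genes are shown before their values, to give the sequences next to which the called and co-varying genes start. RefSeq windows on GRCm38.p6, from 250 bases before to 50 bases after a start site, matched 8 of the 10 genes with 10 windows, and Il12rb1 and Ccl5 had none. Windows are printed 5′ to 3′ on the strand of the gene for Eomes (the gene called between genotypes), Tbx21, Ifng and Cxcr3 (called between organs) and Il12rb2 (the closest member to Ifng across samples). They lie at chr9:118477939-118478238 (plus strand, Eomes), chr11:97115282-97115581 (minus, Tbx21), chr10:118440796-118441095 (plus, Ifng), chr6:67376139-67376438 (minus, Il12rb2) and chrX:101734098-101734397 (minus, Cxcr3). Capitals mark matches, on either strand, to 3 short motifs: a T-box core (AGGTGT), a STAT palindrome (TTCNNNGAA) and a RUNX core (TGTGGT, read as ACCACA on the other strand).
Eomes promoter: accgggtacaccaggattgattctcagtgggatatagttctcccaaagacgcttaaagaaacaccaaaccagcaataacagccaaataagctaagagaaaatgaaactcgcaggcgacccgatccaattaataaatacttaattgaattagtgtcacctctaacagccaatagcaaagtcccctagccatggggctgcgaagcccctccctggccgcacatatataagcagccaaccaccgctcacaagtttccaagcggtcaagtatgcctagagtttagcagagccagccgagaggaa
Tbx21 promoter: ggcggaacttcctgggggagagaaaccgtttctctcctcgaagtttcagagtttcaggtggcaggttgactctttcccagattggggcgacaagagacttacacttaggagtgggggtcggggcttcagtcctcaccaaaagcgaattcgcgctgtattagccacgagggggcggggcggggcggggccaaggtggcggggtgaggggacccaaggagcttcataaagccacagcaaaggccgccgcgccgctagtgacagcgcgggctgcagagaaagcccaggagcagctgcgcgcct
Ifng promoter: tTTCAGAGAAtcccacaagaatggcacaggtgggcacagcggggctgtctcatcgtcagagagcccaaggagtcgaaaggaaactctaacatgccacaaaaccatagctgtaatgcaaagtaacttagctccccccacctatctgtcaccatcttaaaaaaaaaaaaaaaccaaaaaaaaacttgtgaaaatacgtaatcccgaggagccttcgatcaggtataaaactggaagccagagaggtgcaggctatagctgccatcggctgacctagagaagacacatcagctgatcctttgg
Il12rb2 promoter: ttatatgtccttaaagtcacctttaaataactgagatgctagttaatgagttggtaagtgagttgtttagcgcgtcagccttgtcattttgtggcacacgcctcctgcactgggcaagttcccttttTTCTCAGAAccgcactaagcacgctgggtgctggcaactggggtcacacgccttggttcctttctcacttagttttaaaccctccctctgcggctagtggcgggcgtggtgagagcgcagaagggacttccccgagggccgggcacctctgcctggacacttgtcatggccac
Cxcr3 promoter: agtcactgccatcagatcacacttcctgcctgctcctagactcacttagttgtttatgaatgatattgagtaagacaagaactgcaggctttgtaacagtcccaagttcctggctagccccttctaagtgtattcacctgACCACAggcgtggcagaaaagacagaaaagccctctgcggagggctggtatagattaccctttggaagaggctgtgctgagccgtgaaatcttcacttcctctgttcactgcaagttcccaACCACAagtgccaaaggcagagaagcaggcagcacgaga
The STAT palindrome was present in 2 of the 10 member windows, those of Ifng (TTCAGAGAA, starting 249 bases before the start site) and Il12rb2 (TTCTCAGAA, 123 bases before it), and in 8.3% of all 32851 windows of the table. The RUNX core occurred in the Cxcr3 window, 110 bases before and 11 bases after the start site, and in 1 of the 2 Runx3 windows, against 16.8% of all windows. The T-box core was in 0 of the 10 member windows and in 13.7% of all windows. The matches on display did not overlap each other. A match describes letters only, and the lack of one in so short a window says nothing of the factor.

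**Figure D1:**
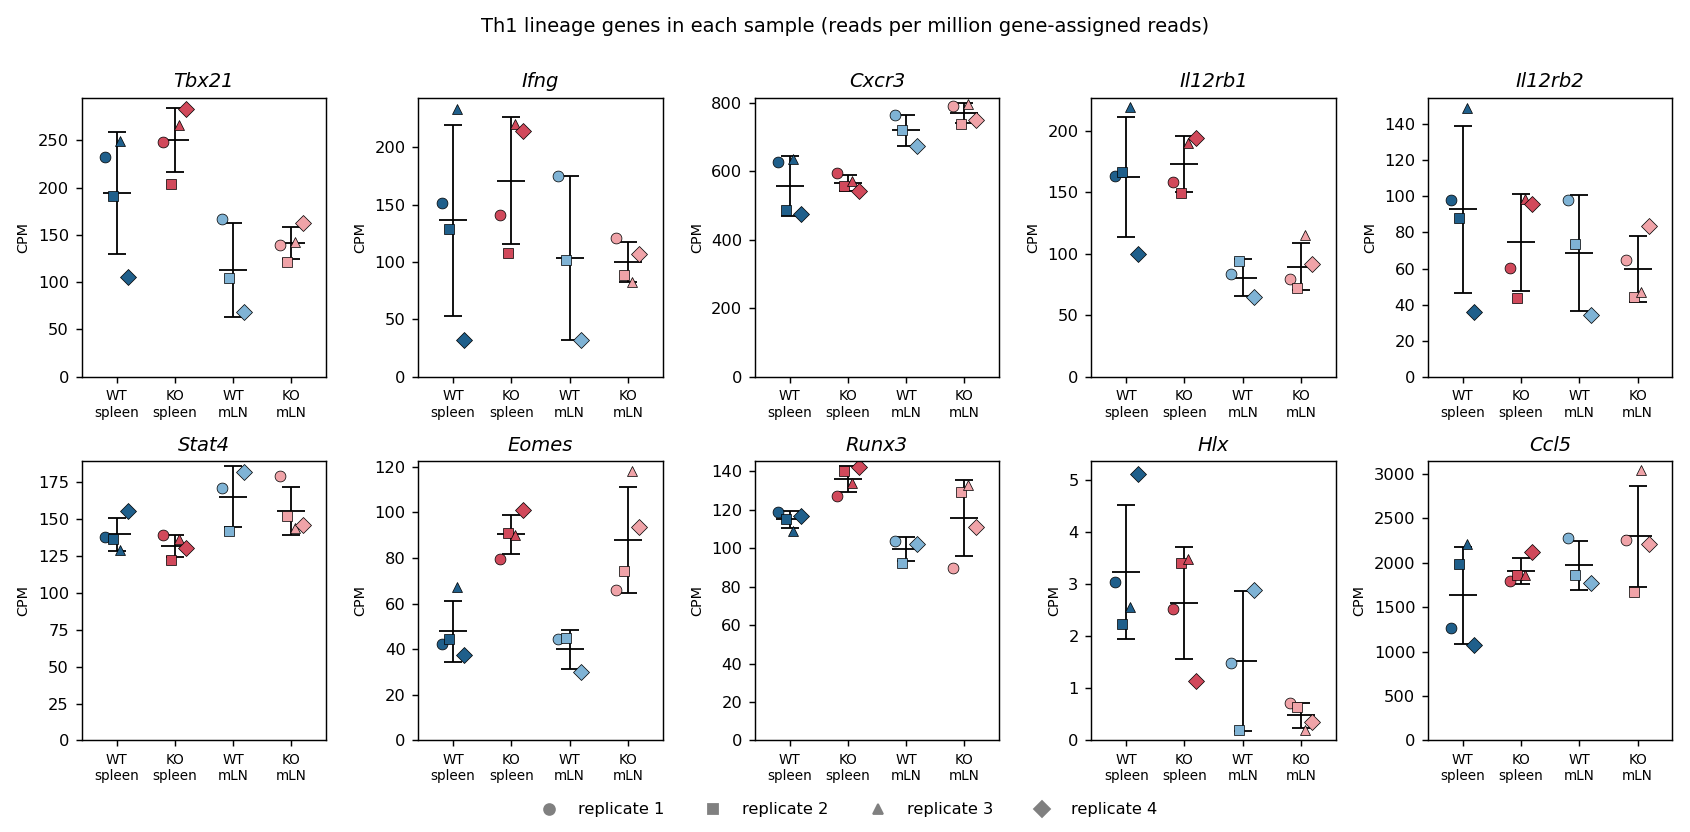
CPM (y axis, linear from 0) of the 10 Th1 lineage genes in each of the 15 samples, by group on the x axis, with symbols for the replicate number and a black bar for the mean with its SD. Eomes lies higher in every KO sample than in every WT sample of the same organ, and WT replicate 4 (diamonds) is the lowest WT sample for 7 genes in each organ.

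Loss of AMPKα1 went with a higher level of 1 of the 10 genes, Eomes, the T-box factor of cytotoxic and memory-like T cells. Eomes was called higher in KO than in WT in spleen (1.9-fold) and in mLN (2.19-fold), as the only member called of the 10 tested in spleen and of the 9 tested in mLN. Of all genes tested, 1.3% were called in spleen and 0.641% in mLN. For Ifng, Tbx21, Cxcr3, Ccl5, the IL-12 receptor chains and Stat4 no difference between genotypes was called in either organ, with intervals that were wide for Ifng and narrow for Cxcr3 and Stat4. The groups did not overlap for 2 of 10 members in spleen (Eomes and Runx3, beside 12% of all genes tested) and for 1 of 9 in mLN (Eomes, beside 14.4%). The median log2 fold change of the members was 0.17 in spleen and 0.14 in mLN, with medians over all genes tested of -0.0041 and -0.0038. Both medians include the WT samples numbered 4 and were not computed without them. Without these samples the values of Eomes, Ifng, Tbx21, Cxcr3, Ccl5 and the IL-12 receptor chains were lower in each organ. Those of Stat4 and Runx3 were slightly higher, as was that of Hlx in spleen.

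Eomes (ENSMUSG00000032446, chromosome 9, 118478212 to 118486132) was at 42.3, 44.6, 67.5 and 37.3 CPM in WT spleen and at 79.8, 90.9, 89.9 and 101 CPM in KO spleen. In mLN it was at 44.5, 45.1 and 30.1 CPM in WT and at 66.1, 74.2, 118 and 93.6 CPM in KO. All KO samples thus lay above all WT samples in each organ, with WT spleen replicate 3 the closest to the KO range. The mean rose from 47.9 ± 13.4 (SD, n = 4) to 90.5 ± 8.79 CPM (SD, n = 4) in spleen, a log2 fold change of 0.93 (SE 0.17, 95% interval 0.54 to 1.31, edgeR adjusted p = 0.0444). In mLN the mean rose from 39.9 ± 8.48 (SD, n = 3) to 88 ± 23.2 CPM (SD, n = 4), a log2 fold change of 1.13 (SE 0.21, 95% interval 0.67 to 1.58, edgeR adjusted p = 0.0422). In bulk samples, more cells with the gene and more RNA per cell cannot be told apart. Both calls lay close to the threshold. With 1 sample left out in turn, the log2 fold change stayed between 0.82 and 1.15 in spleen and between 0.96 and 1.24 in mLN, while the adjusted p ranged from 0.00203 to 0.118 (under 0.05 in 1 of 8 fits, the one without WT spleen replicate 3) and from 0.0404 to 0.151 (under 0.05 in 1 of 7 fits, the one without KO mLN replicate 1). Without WT replicate 4 the log2 fold change was 0.82 in spleen (edgeR adjusted p = 0.071) and 0.96 in mLN (edgeR adjusted p = 0.151). DESeq2 called Eomes in both organs, with adjusted p-values of 5.67e-05 and 2.58e-06, and over all alternatives the adjusted p ranged from 8.45e-16 to 0.118 in spleen and from 2.04e-13 to 0.195 in mLN.

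Eomes is also expressed by NK cells and CD8+ T cells, so their markers are given beside it. The 10 NK cell markers summed to 73.6 to 102 CPM in WT and 83 to 108 CPM in KO spleen and to 60.9 to 90.3 CPM in WT and 67.8 to 96.1 CPM in KO mLN, ranges that overlapped in each organ. Of the 6 NK cell markers tested, edgeR called 0 between genotypes in spleen (3 at an unadjusted p under 0.05, 0 by DESeq2) and 0 in mLN (2 unadjusted, 1 by DESeq2). Their median log2 fold change between genotypes was 0.562 in spleen and 0.61 in mLN, beside -0.0041 and -0.0038 for all genes tested. Klrb1f made up the largest share of the sum, and single markers went both ways. The NK cell receptor gene Ncr1 was at 1.14 to 3.31 CPM in WT and 1.86 to 8.58 CPM in KO spleen, and at 0.462 to 1.38 CPM in WT and 0.793 to 3.49 CPM in KO mLN. Klrb1c, another NK cell receptor gene, was at 2.56 to 9.63 CPM in WT and 1.24 to 4.29 CPM in KO spleen, and at 5.27 to 11.7 CPM in WT and 1.61 to 5.04 CPM in KO mLN. Klra4 and Klra8 were at 0 in all WT mLN samples. The 2 CD8 T cell markers summed to 2.56 to 5.11 CPM in WT and 1.61 to 4.34 CPM in KO spleen, and to 7.18 to 11.6 CPM in WT and 18.9 to 28.2 CPM in KO mLN, where the KO samples were all above the WT samples. Cd8a alone made this separation, at 0.299 to 8.5 CPM in WT and 16.4 to 23 CPM in KO mLN. Cd8b1 overlapped, at 3.07 to 6.88 CPM in WT and 1.44 to 6.98 CPM in KO mLN. Of the CD8 T cell markers tested, edgeR called 0 of 1 in spleen (0 unadjusted, 0 by DESeq2) and 0 of 2 in mLN (1 unadjusted, 0 by DESeq2). The 6 red cell markers, among them the globins, summed to 93.6 to 1890 CPM in WT and 41.8 to 106 CPM in KO spleen and to 20.8 to 798 CPM in WT and 17.8 to 71.1 CPM in KO mLN. Of these edgeR called 0 of 6 in spleen (6 unadjusted, 6 by DESeq2) and 0 of 5 in mLN (5 unadjusted, 0 by DESeq2). The high sums were those of WT spleen replicates 3 and 4 and WT mLN replicate 4. The globin gene Hbb-bs was at 59.8, 42.9, 999 and 463 CPM in WT spleen and at 11.6, 15.6 and 434 CPM in WT mLN. In KO it was at 20.3 to 50.6 CPM in spleen and at 8.03 to 36.6 CPM in mLN. The part of these other cells in the Eomes difference was not tested. Eomes was not called between organs, with log2 fold changes from spleen to mLN of -0.23 in WT (SE 0.22, edgeR adjusted p = 0.503, or -0.18 with both WT replicate 4 samples left out) and -0.04 in KO (SE 0.16, 95% interval -0.38 to 0.30, edgeR adjusted p = 0.875).

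Ifng, the interferon-γ gene (chromosome 10, 118441046 to 118445892), varied most among the members in WT spleen and, but for Hlx, in WT mLN. It was at 151, 129, 233 and 31.6 CPM in WT spleen and at 141, 108, 220 and 214 CPM in KO spleen. In mLN the Ifng values were 175, 102 and 32.2 CPM in WT and 121, 88.8, 82.2 and 107 CPM in KO. WT replicate 4 was lowest in both organs, and the genotypes overlapped in both. The coefficient of variation (SD over mean) was 60.9% in WT and 32.1% in KO spleen, and 69.3% in WT and 17.6% in KO mLN. Between genotypes the Ifng log2 fold change was 0.33 in spleen (SE 0.46, 95% interval -0.70 to 1.36, edgeR adjusted p = 0.732) and -0.06 in mLN (SE 0.40, 95% interval -0.94 to 0.82, edgeR adjusted p = 0.962). These intervals hold changes of more than 1.5-fold in either direction. Without WT replicate 4 the Ifng values became 0.005 in spleen and -0.49 in mLN, and without WT spleen replicate 3 the spleen value was 0.75. Of the exon bases of Ifng, 336 (25.9%) are shared with Gm49751 on the same strand, and reads in shared bases are left uncounted when they are ambiguous.

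Ccl5, a chemokine made by activated T and NK cells, was the most abundant member per transcript length in all groups. In spleen Ccl5 was at 1270, 1980, 2210 and 1070 CPM in WT and at 1790, 1860, 1860 and 2120 CPM in KO. In mLN it was at 2280, 1860 and 1770 CPM in WT and at 2260, 1670, 3040 and 2210 CPM in KO. The genotypes overlapped in both organs, and the log2 fold changes were 0.23 (SE 0.21, 95% interval -0.23 to 0.69, edgeR adjusted p = 0.567) and 0.21 (SE 0.17, 95% interval -0.16 to 0.58, edgeR adjusted p = 0.61). Without WT replicate 4 the Ccl5 values were 0.075 in spleen and 0.13 in mLN, and without WT spleen replicate 3 the spleen value was 0.43.

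Il12rb1, the gene of the IL-12 receptor chain that is shared with the IL-23 receptor, was at 163, 166, 219 and 100 CPM in WT spleen and at 158, 149, 190 and 194 CPM in KO spleen. In mLN the Il12rb1 values were 83.2, 93.7 and 64.4 CPM in WT and 79.5, 71.7, 115 and 91.4 CPM in KO. Genotypes overlapped in both organs, with log2 fold changes of 0.10 (SE 0.21) in spleen and 0.14 (SE 0.17) in mLN (edgeR adjusted p = 0.817 and 0.742). Il12rb1 was at -0.07 and 0.002 without WT replicate 4, and without WT spleen replicate 3 the spleen value was 0.30. Il12rb2, the chain that gives the receptor its IL-12 signal, was at 98.2, 87.9, 149 and 36.1 CPM in WT spleen and at 60.1, 43.6, 98.3 and 95.9 CPM in KO spleen. In mLN the Il12rb2 values were 97.8, 73.4 and 34.1 CPM in WT and 64.9, 44, 47 and 83.6 CPM in KO. The KO means were below the WT means in both organs, but the ranges overlapped and the differences were within the spread, with log2 fold changes of -0.31 (SE 0.38, 95% interval -1.16 to 0.55) in spleen and -0.20 (SE 0.31, 95% interval -0.90 to 0.49) in mLN (edgeR adjusted p = 0.701 and 0.806). The Il12rb2 values turned on single WT samples: without WT replicate 4 they were -0.58 in spleen and -0.53 in mLN, and without WT spleen replicate 3 the spleen value was 0.04. Serbp1 on the opposite strand shares 1519 of the 3794 exon bases of Il12rb2 (40%), which makes its level uncertain because the counted strand is not stated.

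Cxcr3, the receptor by which Th1 cells follow interferon-induced chemokines, varied little. It was at 627, 486, 636 and 476 CPM in WT and at 595, 557, 572 and 541 CPM in KO spleen, and the KO samples fell within the WT range. In mLN Cxcr3 was at 765, 719 and 674 CPM in WT and at 790, 738, 797 and 750 CPM in KO. The log2 fold changes between genotypes were 0.04 (95% interval -0.21 to 0.29) in spleen and 0.09 (95% interval -0.08 to 0.25) in mLN (edgeR adjusted p = 0.89 and 0.652). Stat4, which carries the IL-12 signal to the nucleus, was at 138, 136, 129 and 155 CPM in WT and at 139, 122, 136 and 130 CPM in KO spleen. In mLN it was at 171, 142 and 182 CPM in WT and at 179, 152, 144 and 146 CPM in KO. Stat4 overlapped between genotypes as well, with log2 fold changes of -0.07 (95% interval -0.23 to 0.09) and -0.10 (95% interval -0.36 to 0.17) (edgeR adjusted p = 0.638 and 0.75). Leaving out WT replicate 4 gave -0.04 and 0.04 for Cxcr3 and -0.02 and -0.02 for Stat4. For both genes the intervals in spleen and mLN exclude changes of 1.5-fold in either direction. Gm28177 shares 1033 of the 3872 exon bases of Stat4 (26.7%) on the same strand, and ambiguous reads there are left uncounted.

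Tbx21, the gene of T-bet (chromosome 11, 97098071 to 97115331), was at 232, 191, 249 and 105 CPM in WT spleen and at 248, 204, 266 and 283 CPM in KO spleen. In mLN Tbx21 was at 167, 104 and 68 CPM in WT and at 139, 121, 143 and 163 CPM in KO. The KO samples overlapped the WT samples in each organ, and the WT sample numbered 4 was far below the KO range in both. The log2 fold change was 0.38 in spleen (SE 0.23, 95% interval -0.14 to 0.89, edgeR adjusted p = 0.395) and 0.31 in mLN (SE 0.24, 95% interval -0.21 to 0.84, edgeR adjusted p = 0.586). Without WT replicate 4 it was 0.17 in spleen and 0.05 in mLN. With no filter on low counts Tbx21 was called higher in KO spleen at nearly the same fold change (0.39, edgeR adjusted p = 0.00286). The adjusted p ranged from 0.00286 to 0.627 over all alternatives in spleen and from 0.102 to 0.951 in mLN.

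Runx3, a Runt factor that acts with T-bet at Ifng, was at 119, 115, 109 and 117 CPM in WT spleen and at 127, 140, 134 and 142 CPM in KO spleen. The KO samples were all above the WT samples, by a small amount: the means were 115 ± 3.97 (SD, n = 4) and 136 ± 6.58 CPM (SD, n = 4), and the log2 fold change was 0.26 (SE 0.06, 95% interval 0.12 to 0.39). Runx3 missed the threshold with edgeR (adjusted p = 0.0683) and passed it with DESeq2 (adjusted p = 0.0137), with a range of 0.0137 to 0.233 over all alternatives. In mLN Runx3 was at 104, 92.4 and 102 CPM in WT and at 89.8, 129, 133 and 111 CPM in KO, where KO replicate 1 lay below all WT samples. The mLN log2 fold change was 0.20 (SE 0.13, 95% interval -0.09 to 0.49, edgeR adjusted p = 0.514). Leaving out WT replicate 4 gave 0.26 and 0.22 for Runx3.

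Hlx, a homeobox factor of early Th1 differentiation, had few reads. In WT spleen 29, 21, 27 and 51 reads were counted, and in KO spleen 24, 38, 37 and 13. WT mLN had 16, 2 and 29 Hlx reads and KO mLN had 8, 7, 2 and 4, and the counts of 2 lay under the floor of 3 counts below which a level was not read. Genotypes overlapped in spleen, with a log2 fold change of -0.28 (SE 0.36, edgeR adjusted p = 0.706) that became 0.02 without WT spleen replicate 4, and Hlx did not pass the filter for the test in mLN. Such floors and all levels here cover counting error only, since the reads carry no molecular identifiers.

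**Figure D2:**
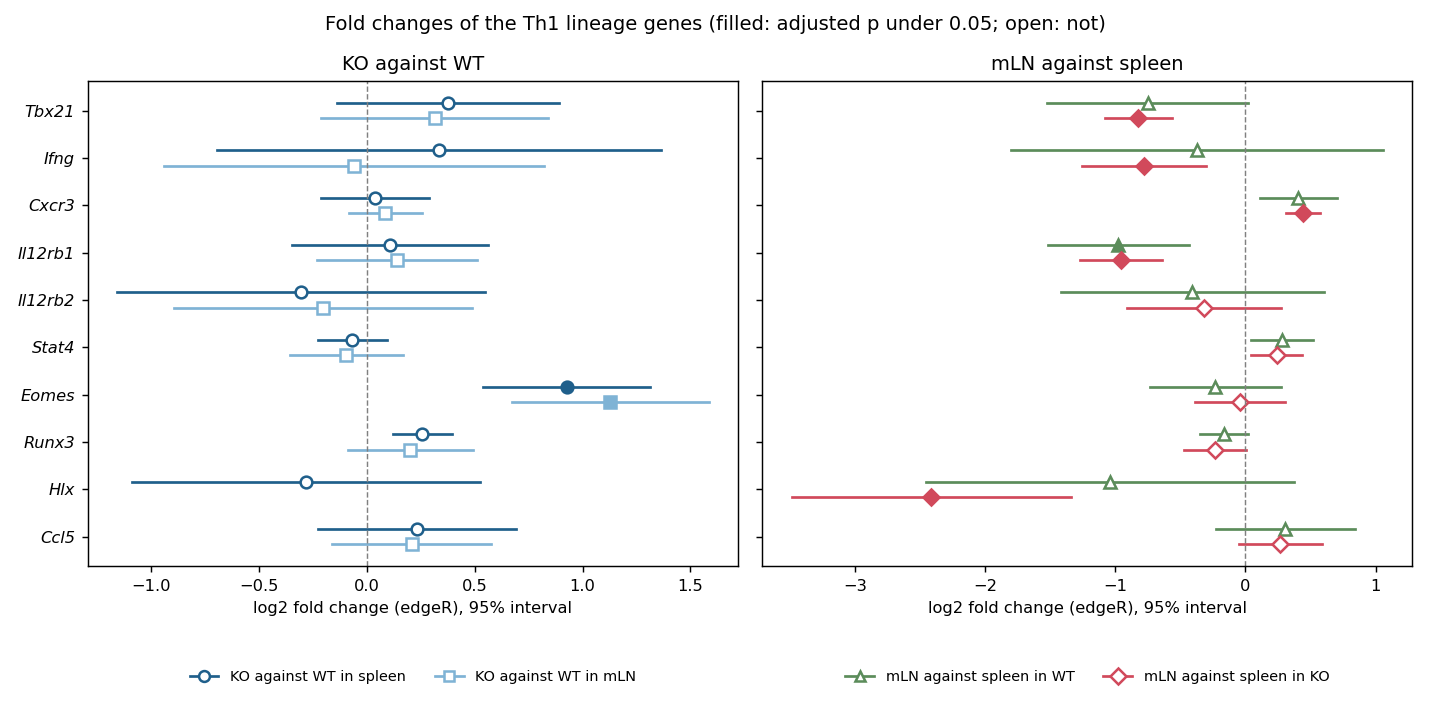
Log2 fold changes (x axis) of the 10 genes between genotypes (left) and between organs (right), with lines for the 95% interval and filled symbols for genes called at an adjusted p under 0.05 with edgeR. Eomes is the only filled gene on the left, and 5 genes are filled for KO and 1 for WT on the right; Hlx was not tested between genotypes in mLN.

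In KO cells 5 of the 10 members were called between mLN and spleen, beside 25.3% of all genes tested: Cxcr3 was higher in mLN, and Tbx21, Il12rb1, Ifng and Hlx were lower. In WT cells 1 of 10 was called, Il12rb1, beside 20.5% of all genes tested. Groups did not overlap for 5 of 10 members in KO (Tbx21, Il12rb1, Cxcr3, Stat4 and Hlx, beside 28.7% of all genes tested) and for 3 of 10 in WT (Il12rb1, Cxcr3 and Runx3, beside 31.5%). With both WT replicate 4 samples left out, 1 of 10 was called in WT as well, and the share of all genes in that fit is not given here. The replicate numbers of the WT samples paired spleen with mLN in the check described for the processing. With the number as a block, which takes nothing from WT spleen replicate 3 because its partner is missing, 5 of 10 members were called in WT, beside 30% of all genes tested.

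Il12rb1 was lower in mLN than in spleen in both genotypes. Its mean was 162 ± 48.4 (SD, n = 4) in WT spleen and 80.4 ± 14.9 CPM (SD, n = 3) in WT mLN, a log2 fold change of -0.98 (SE 0.24, edgeR adjusted p = 0.0205). In KO the mean was 173 ± 22.7 (SD, n = 4) in spleen and 89.4 ± 18.8 CPM (SD, n = 4) in mLN, a log2 fold change of -0.95 (SE 0.14, edgeR adjusted p = 0.000721). No mLN sample reached any spleen sample of its genotype. Over the fits that each left out 1 sample of the WT comparison, the edgeR adjusted p ranged from 0.00274 to 0.0725. It was under 0.05 in 4 of 7 fits, and above it without WT spleen replicate 1, WT mLN replicate 1 or WT mLN replicate 4. With both WT replicate 4 samples left out the log2 fold change was -1.02 (edgeR adjusted p = 0.00739). The blocked WT value was -0.76 (SE 0.09, edgeR adjusted p = 0.000258). The adjusted p over all WT alternatives ranged from 7.43e-15 to 0.0725. In KO the call held in 8 of 8 fits with 1 sample left out.

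Tbx21 was lower in mLN than in spleen in each of the 3 WT pairs, and in KO no mLN sample reached a spleen sample. In KO the mean fell from 250 ± 34.1 (SD, n = 4) to 142 ± 17.3 CPM (SD, n = 4), a log2 fold change of -0.82 (SE 0.12, edgeR adjusted p = 0.000493), and the call held in 8 of 8 fits with 1 sample left out. In WT the means were 194 ± 64.3 (SD, n = 4) and 113 ± 49.9 CPM (SD, n = 3), with a log2 fold change of -0.75 that was not called without pairing (SE 0.34, edgeR adjusted p = 0.154) and of -0.61 that was called with the block (SE 0.09, edgeR adjusted p = 0.000964). With both WT replicate 4 samples left out it was -0.70 (edgeR adjusted p = 0.0724), and without WT spleen replicate 4 alone it was -0.96 and called (edgeR adjusted p = 0.0434), in a range of 4.25e-09 to 0.374 over all WT alternatives.

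Cxcr3 moved the other way, being higher in each mLN sample than in all spleen samples of its genotype. The KO means were 566 ± 22.9 in spleen and 769 ± 29.4 CPM in mLN (SD, n = 4 each), which gave a log2 fold change of 0.44 (SE 0.06, edgeR adjusted p = 0.000327, called in 8 of 8 fits with 1 sample left out). The WT means were 556 ± 86.9 (SD, n = 4) and 719 ± 45.8 CPM (SD, n = 3), with a log2 fold change of 0.41 (SE 0.13, edgeR adjusted p = 0.0574) and a blocked value of 0.50 (SE 0.07, edgeR adjusted p = 0.00101). DESeq2 called the WT difference (adjusted p = 0.027), and so did edgeR without WT spleen replicate 3 (adjusted p = 0.0305), in a range of 0.00101 to 0.157 over all WT alternatives. With both WT replicate 4 samples left out it was 0.37 (edgeR adjusted p = 0.13). Stat4 was also higher in mLN in each WT pair and in each KO mLN sample than in all KO spleen samples, though not called without pairing, at a log2 fold change of 0.28 in WT (SE 0.11, edgeR adjusted p = 0.0934) and 0.24 in KO (SE 0.09, edgeR adjusted p = 0.0726). Its blocked WT value was 0.25 (SE 0.08, edgeR adjusted p = 0.0354), and the unpaired one was called without WT mLN replicate 2 (0.39, edgeR adjusted p = 0.0322), the lowest of a range that reached 0.274. With both WT replicate 4 samples left out it was 0.24 (edgeR adjusted p = 0.191).

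Ifng in KO fell from 171 ± 54.9 in spleen to 99.7 ± 17.6 CPM in mLN (SD, n = 4 each), although KO spleen replicate 2, at 108 CPM, lay within the mLN range. The log2 fold change was -0.78 (SE 0.22, edgeR adjusted p = 0.022), and the call was lost without KO spleen replicate 3 or 4 or KO mLN replicate 2 or 3 (4 of 8 fits, adjusted p up to 0.0702) and when all 15 samples were fitted together (adjusted p = 0.271), in a range of 1.68e-15 to 0.271 over all alternatives. In WT the Ifng log2 fold change was -0.37 (SE 0.63, 95% interval -1.80 to 1.06, edgeR adjusted p = 0.721), with the block it was 0.02 (95% interval -0.23 to 0.26, edgeR adjusted p = 0.932), and with both WT replicate 4 samples left out it was -0.28 (edgeR adjusted p = 0.584). With no filter on low counts it was called (edgeR adjusted p = 0.016), in a range of 0.016 to 0.968 over all WT alternatives. Same-numbered WT samples were close to each other, at 151 and 175 CPM for replicate 1, 129 and 102 CPM for replicate 2 and 31.6 and 32.2 CPM for replicate 4.

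Hlx in KO fell from 2.64 ± 1.08 to 0.48 ± 0.244 CPM (SD, n = 4 each), with a fitted log2 fold change of -2.41 (SE 0.49, 95% interval -3.49 to -1.34, edgeR adjusted p = 0.00423, called in 8 of 8 fits with 1 sample left out). This rests on 21 reads in all over the KO mLN samples. In WT the Hlx value was -1.04 (SE 0.63, edgeR adjusted p = 0.278), and -1.58 with both WT replicate 4 samples left out. Ccl5 had log2 fold changes of 0.31 in WT (SE 0.24, edgeR adjusted p = 0.398) and 0.27 in KO (SE 0.15, edgeR adjusted p = 0.206), and its blocked WT value of 0.54 was called (SE 0.15, edgeR adjusted p = 0.0228), as was the KO value without KO mLN replicate 2 (0.40, edgeR adjusted p = 0.0318). With no filter on low counts Ccl5 was called in WT and in KO (edgeR adjusted p = 0.0423 and 0.0138), and over all alternatives the adjusted p ranged from 0.0228 to 0.703 in WT and from 0.0138 to 0.516 in KO. With both WT replicate 4 samples left out the WT value was 0.21. Runx3 was not called in either genotype, at -0.17 in WT (-0.19 with both replicate 4 samples left out) and -0.23 in KO. Il12rb2 was not called either, at -0.41 in WT (-0.36 with both replicate 4 samples left out) and -0.32 in KO. With no filter it was called lower in mLN in both (edgeR adjusted p = 0.00919 and 0.0209), in a range of 0.00919 to 0.944 in WT and 0.0209 to 0.751 in KO over all alternatives. The WT value for Il12rb2 went from -0.77 without WT mLN replicate 1 to -0.06 without WT spleen replicate 3.

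Some other signals differed between the organs. Their counts are read beside the 25.3% of all genes tested that were called in KO and 20.5% in WT. Of the 10 T cell markers, 6 were called in KO (5 higher in mLN, 1 lower) and 2 in WT (both higher), with medians of 0.251 in KO and 0.194 in WT on the log2 scale. The WT share of 20% was near that of all genes tested. The T cell receptor complex gene Cd3d was higher in mLN by 0.48 in KO (edgeR adjusted p = 0.000237) and by 0.46 in WT (edgeR adjusted p = 0.0137) on the log2 scale, and Trbc2 by 0.35 and 0.48 (edgeR adjusted p = 0.00246 and 0.0264), beside 0.44 for Cxcr3 and 0.24 for Stat4 in KO. Cd3e, of the same complex and named for its direction, was lower in KO mLN (-0.225, edgeR adjusted p = 0.0247). Cd3g, Cd4, Lck and Cd5 were not called in either genotype. The 11 genes of early activation and cell handling, such as Fos and Jun, summed to 1630 to 1720 CPM in KO spleen and 720 to 892 CPM in KO mLN. In WT they summed to 1260 to 2000 CPM in spleen and 973 to 1620 CPM in mLN. In KO 7 of 11 tested were called, all lower in mLN, and in WT 0 of 9 tested were called. The 10 myeloid markers summed to 510 to 1110 CPM in KO spleen and 370 to 700 CPM in KO mLN, and to 457 to 819 CPM and 248 to 541 CPM in WT. Among the CD8 T cell markers, Cd8a rose from 0.828 ± 0.69 to 18.4 ± 3.13 CPM in KO (SD, n = 4 each, edgeR adjusted p = 3.18e-05). Cd8b1 was not called in KO, with overlapping ranges of 1.43 to 2.75 CPM in spleen and 1.44 to 6.98 CPM in mLN. The 8 B cell markers summed to 52.2 to 193 CPM in WT and 52.6 to 148 CPM in KO spleen, and to 175 to 555 CPM in WT and 208 to 310 CPM in KO mLN. The part of these signals in the organ differences was not tested.

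A fit of all 15 samples with a term for genotype by organ asked whether the KO to WT difference was unequal in spleen and mLN. No member passed, with adjusted p-values of 1 for all 10 (edgeR), and of all 15438 genes tested 0 were called (0%), beside 652 at an unadjusted p under 0.05 and 2 called by DESeq2. The interaction for Eomes was 0.20 on the log2 scale (95% interval -0.42 to 0.82). For Ifng it was -0.40 (95% interval -1.89 to 1.09), for Tbx21 -0.07 (95% interval -0.86 to 0.73) and for Cxcr3 0.05 (95% interval -0.26 to 0.35). With both WT replicate 4 samples left out these were 0.14, -0.49, -0.12 and 0.075. An organ effect called in KO and not in WT was thus not shown to differ between the genotypes.

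Levels were compared between genes only per kilobase of exon (CPM per kb). Ccl5 came first in each group, with group means of 1700 to 2390 CPM per kb, and Cxcr3 next, with 321 to 444 CPM per kb, and the sample ranges of both stood clear of each other and of all lower genes. Ifng (means of 77 to 132 CPM per kb) and then Tbx21 (45.3 to 101 CPM per kb) came after them, and their ranges overlapped in every group. Il12rb1 and Stat4 followed in spleen, at 39.5 and 36.1 CPM per kb in WT with overlapping ranges and at 42.1 and 34 CPM per kb in KO, whereas in mLN Stat4, at 42.5 in WT and 40.1 CPM per kb in KO, stood above Il12rb1, at 19.6 and 21.8 CPM per kb, with no overlap. Eomes had the lowest mean but for Hlx in both WT groups (11.5 and 9.6 CPM per kb, against 24.4 and 18 for Il12rb2) and a mean above that of Il12rb2 in both KO groups (21.8 and 21.2 CPM per kb, against 19.6 and 15.8). The ranges of Eomes and Il12rb2 overlapped in all 4 groups, and the Il12rb2 level is uncertain for its overlap with Serbp1. The Ifng and Stat4 levels are likewise uncertain for their overlaps with Gm49751 and Gm28177. Hlx was lowest in each group, with means of 0.211 to 1.42 CPM per kb.

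**Figure D3:**
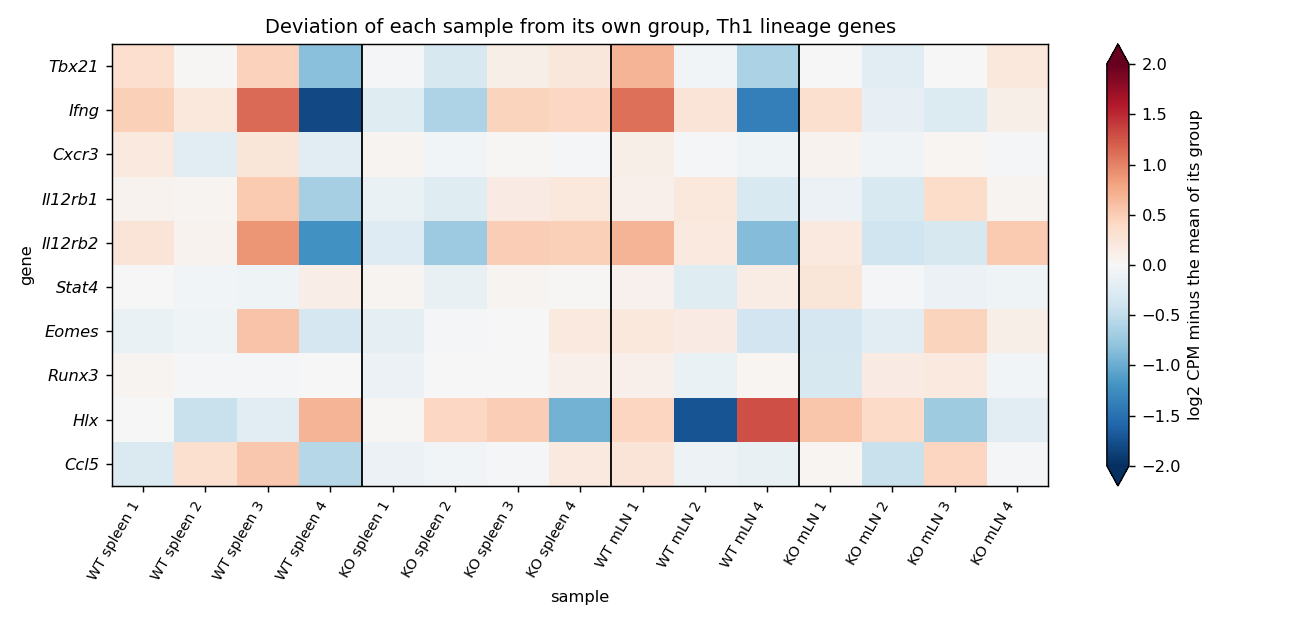
Deviation of each sample (columns) from the mean of its own group for the 10 genes (rows), as log2 CPM on a colour scale from -2 to 2. The WT samples numbered 4 are blue for Ifng, Il12rb2 and Tbx21 in both organs, and Cxcr3, Stat4 and Runx3 stay pale in all samples.

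The spread within groups differed between members without a clear break. Stat4 had coefficients of variation of 5.86% to 12.6%, Cxcr3 of 3.82% to 15.6% and Runx3 of 3.46% to 17%. Those of Tbx21 were 12.2% to 44.3%, of Il12rb2 30.6% to 49.8% and of Ifng 17.6% to 69.3%. Ifng deviated from its group mean by -1.81 in WT spleen replicate 4 and -1.36 in WT mLN replicate 4 on the log2 scale, and Il12rb2 and Tbx21 were below their group means in the same samples. WT spleen replicate 3 was at the other end, highest of its group for the same 7 genes that were lowest in replicate 4. Among 24 genes of other T helper lineages, WT replicate 4 was the highest of its group for 16 in spleen and 12 in mLN, and among 30 Th1 effector molecules it was the lowest for 16 and 18. Other samples stood out as far for the genes of other lineages: KO spleen replicate 2 was the highest of its group for 16 of 24, KO spleen replicate 4 the lowest for 19, KO mLN replicate 4 the lowest for 18 and WT spleen replicate 3 the lowest for 15. The Th17 gene Ccr6, named after its values were seen, was at 32.6, 42.6, 21.3 and 169 CPM in WT spleen and at 30.6, 80.2 and 181 CPM in WT mLN. These are descriptions of single samples, with no test.

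**Figure D4:**
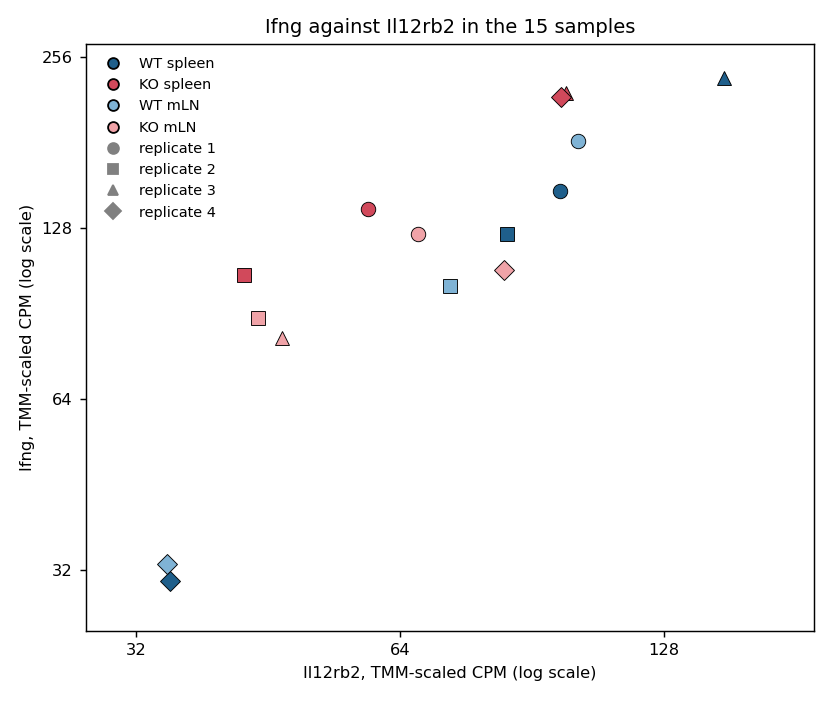
Ifng (y axis) against Il12rb2 (x axis) in the 15 samples, both in TMM-scaled CPM on log scales, with colours for groups and symbols for replicate numbers. The 2 WT samples numbered 4 lie together at the lower left, and WT spleen replicate 3 lies at the upper right.

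Likeness between genes was described over the 15 samples on log2 TMM-scaled CPM among 9266 genes with a mean of at least 10 CPM, with no p-value, since samples of 1 group share genotype and organ. Among the genes closest to Ifng by Pearson's r, 1 was a member, Il12rb2 (r = 0.87, Spearman's rho = 0.907), and its deviations from the group means followed those of Ifng more closely than its levels did (r = 0.952). Others were Gm49751 (r = 0.878), which overlaps Ifng, Cd38 (r = 0.872), a surface enzyme of activated lymphocytes, and Irf1 (r = 0.87, rho = 0.768), an interferon-induced factor. Tbx21 was most like Kcnk5 (r = 0.954), a potassium channel gene, Hip1 (r = 0.952), Tnfrsf1a (r = 0.938), a TNF receptor, Apaf1 (r = 0.936), of the apoptosome, and Ctsd (r = 0.935), a lysosomal protease. Over the 13 samples other than the WT samples numbered 4, r with Ifng was 0.83 for Il12rb2, 0.67 for Gm49751, 0.738 for Cd38 and 0.779 for Irf1, and r with Tbx21 lay between 0.893 (Tnfrsf1a) and 0.951 (Hip1).

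Of 24 tested genes of Th1 upstream signalling, 2 were called in spleen and 2 in mLN between genotypes, all lower in KO (8.33% of the list in each organ, beside 1.3% and 0.641% of all genes tested). DESeq2 called 6 in spleen and 5 in mLN, and 10 were at an unadjusted p under 0.05 in each organ. Ifngr1, the ligand-binding chain of the interferon-γ receptor, fell from 1220 ± 83.5 to 600 ± 65.9 CPM in spleen (SD, n = 4 each), or by a log2 fold change of -1.01 (SE 0.10, edgeR adjusted p = 0.00245), and from 1720 ± 104 (SD, n = 3) to 795 ± 234 CPM (SD, n = 4) in mLN, a log2 fold change of -1.12 (SE 0.18, edgeR adjusted p = 0.0326). Il18r1, a chain of the receptor for the Th1-costimulating cytokine IL-18, was at 296, 350, 284 and 292 CPM in WT and at 192, 173, 169 and 162 CPM in KO spleen. Its WT and KO ranges were clearly apart, with a log2 fold change of -0.79 (SE 0.08, edgeR adjusted p = 0.00245). Id2, an inhibitor of E proteins, fell in mLN by 0.54 on the log2 scale (SE 0.09, edgeR adjusted p = 0.0392). The median log2 fold change of the list was 0.006 in spleen and 0.10 in mLN. This list and those below were chosen with earlier results of these data known, so their called shares are descriptions and no test of the lists.

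The other lists are read beside the same 1.3% and 0.641% of all genes tested. Of the Th1 effector molecules, 1 of 29 was called in spleen, Ccr2, a receptor for monocyte chemoattractants (log2 fold change -0.64, SE 0.12, edgeR adjusted p = 0.0444; 6 at an unadjusted p under 0.05, 3 by DESeq2), and 0 of 30 in mLN (10 at an unadjusted p under 0.05, 4 by DESeq2). Of the 13 partners of T-bet and Runx3, edgeR called 0 in spleen (3 unadjusted, 1 by DESeq2) and 0 in mLN (5 unadjusted, 0 by DESeq2). Of the genes of other T helper lineages, 2 of 21 were called in spleen, both lower in KO (the checkpoint receptor Ctla4 at -0.78 and the IL-33 receptor Il1rl1 at -1.57, edgeR adjusted p = 0.0391 and 0.0485), and 1 of 23 in mLN, the follicular helper receptor Cxcr5, which was higher in KO (1.55, SE 0.22, edgeR adjusted p = 0.0291). Of this list 6 in spleen and 10 in mLN were at an unadjusted p under 0.05, and DESeq2 called 4 in each. Among the genes of early activation and cell handling, 3 of 10 tested were called higher in KO spleen and 2 of 11 lower in KO mLN (DESeq2 called 7 and 5, with 6 and 8 at an unadjusted p under 0.05), and their part in these differences was not tested.

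Between organs the called shares of these lists lay around or below those of all genes tested, which were 20.5% in WT and 25.3% in KO. In WT 3 of 24 upstream genes (12.5%), 4 of 30 effector genes (13.3%), 3 of 13 partners (23.1%) and 3 of 23 genes of other lineages (13%) were called. In KO the same lists had 6 of 24 (25%), 5 of 29 (17.2%), 4 of 13 (30.8%) and 6 of 21 (28.6%). Tyk2, a kinase of the IL-12 receptor that binds the IL-12Rβ1 chain, was lower in mLN as Il12rb1 was, from 174 ± 31.2 (SD, n = 4) to 78.8 ± 1.8 CPM (SD, n = 3) in WT and from 185 ± 5.27 to 82 ± 17.6 CPM (SD, n = 4 each) in KO, with log2 fold changes of -1.11 and -1.17 (edgeR adjusted p = 0.0013 and 5.52e-05). Zbtb7b, the gene of the CD4 lineage factor ThPOK, which opposes Runx3, fell from 96.3 ± 16.2 (SD, n = 4) to 31.8 ± 3.59 CPM (SD, n = 3) in WT and from 113 ± 6.14 to 28.4 ± 3.65 CPM (SD, n = 4 each) in KO, with log2 fold changes of -1.56 and -1.998 (edgeR adjusted p = 0.00036 and 5.86e-07). Gzma, the granzyme A gene of cytotoxic lymphocytes, was higher in mLN, at a log2 fold change of 1.83 in WT (SE 0.10, edgeR adjusted p = 5.93e-05) and 1.04 in KO (SE 0.14, edgeR adjusted p = 0.000383). Of the genes of other lineages, all 3 called in WT were higher in mLN, namely Ctla4, Foxp3 and the cytokine gene Il22 (1.57, 1.34 and 1.85, edgeR adjusted p = 0.00305, 0.03 and 0.0448). In KO 4 were higher and 2 lower in mLN. The 3 with the smallest adjusted p were Tigit and Ctla4, which were higher (0.615 and 1.07, edgeR adjusted p = 7.06e-05 and 0.0021), and the transcription factor Maf, which was lower (-0.65, edgeR adjusted p = 0.00043).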

How the data were processed

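mRNA of sorted CD4+ T cells was sequenced as single-end reads of 75 bases (NEBNext Single Cell/Low Input kit). The authors aligned them with STAR 2.6.1a to GRCm38 with GENCODE annotation and deposited raw counts per gene, without normalization, for 15 samples. The counted strand is not given in the sources used here, so overlapping and antisense genes are uncertain, and ambiguous reads and reads on no gene (the latter 58.4% to 63.4% of unique reads) are left out of the totals. The submitters' processing notes name bcl2fastq 2.19.1.403, RSEM and DESeq2 1.22.2 as well. The WT mLN sample that the study excluded for quality was not analysed here.

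Symbols, coordinates and exon lengths came from GENCODE M21, which held 55240 of the 55421 gene IDs. edgeR 4.0.16 (R 4.3.3) was run per comparison with filterByExpr, TMM factors (0.963 to 1.037) and the quasi-likelihood test with Benjamini-Hochberg adjustment. Both edgeR and DESeq2 were tested on simulated data in which 200 genes were changed 4-fold. There the share of false calls was larger with DESeq2 than with edgeR in each comparison, and with edgeR it was above 0.05 in some comparisons. Smaller changes were not simulated, so the DESeq2 calls for single members cannot be judged from this simulation. DESeq2 1.42.0, RLE factors, plain totals, a minimum of 10 counts in every sample, no filter, the replicate number as a block, 1 fit over all 15 samples and each sample left out were the alternatives. Groups and replicate numbers came from the labels, which do not say whether samples with 1 number share a mouse; p-values measure the spread between these samples of 1 experiment. The numbers were taken to pair samples where all deviations of same-numbered samples from their group means correlated at over 0.1 across 15438 genes. WT spleen and mLN did so (0.258, 0.243 and 0.291), KO spleen and mLN did not (0.026 to 0.259), nor did WT and KO (-0.21 to 0.146). All members are named in each comparison, and at most 3 called genes per list and comparison, those with the smallest adjusted p. Some genes that met a naming rule are not reported here. The members and lists were chosen with earlier results of these data known. Figures were drawn with matplotlib 3.10.9 in Python.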

Additional observations from a re-analysis of the deposited data

How the results depend on the processing

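The numbers of called members under edgeR moved by more than 1.5 times under several settings. Between genotypes in spleen (1 called) DESeq2 gave 2, no filter on low counts 2, the replicate block 0 and leaving out each sample in turn 0 to 1, and in mLN (1 called) the block gave 0 and leaving out each sample 0 to 1. Between organs in WT (1 called) DESeq2 gave 2, no filter 6, the block 5, all 15 samples in 1 fit 2 and leaving out each sample 0 to 2. The share of all genes called is given only for the main fits and for the WT organs with the block (20.5% without it, 30% with it). Elsewhere a change in the count of members cannot be told from a general change in calls. In KO the count of 5 stayed between 4 and 7 and the interaction count of 0 stayed at 0 in all settings run. The cause of these shifts in count was not tested. The replicate block turned the Ifng log2 fold change to 0.279 between genotypes in mLN and to 0.015 between organs in WT, and the interaction to -0.048 for Cxcr3, -0.189 for Il12rb1, -0.207 for Il12rb2 and -0.038 for Eomes, and with both WT replicate 4 samples left out, a setting chosen after seeing the data, the interaction for Ccl5 was 0.057. Same-numbered WT and KO samples share only a number, and in that fit the Eomes adjusted p was 0.085 in spleen and 0.195 in mLN. Leaving out 1 sample crossed 0 for uncalled values: between genotypes in spleen for Cxcr3 (-0.036 to 0.119), Il12rb1 (-0.07 to 0.3), Il12rb2 (-0.575 to 0.039) and Hlx (-0.453 to 0.016), in mLN for Ifng (-0.487 to 0.576) and Il12rb2 (-0.528 to 0.157), between organs for Ifng in WT (-1.011 to 0.053) and Eomes in WT (-0.343 to 0.002) and KO (-0.208 to 0.072), and for the interaction of Cxcr3 (-0.036 to 0.121), Ccl5 (-0.226 to 0.131), Il12rb1 (-0.162 to 0.209), Il12rb2 (-0.245 to 0.452), Eomes (-0.029 to 0.309), Tbx21 (-0.327 to 0.336), Ifng (-0.824 to 0.231), Stat4 (-0.143 to 0.045) and Runx3 (-0.126 to 0.034). Of the recomputed fold changes 703 kept direction and side of the threshold, 23 lost and 19 gained a call, and 48 changed sign. With no filter on low counts the fold changes hardly moved while many adjusted p-values fell. For Eomes in spleen the log2 fold change went from 0.926 to 0.943 and the edgeR adjusted p from 0.0444 to 8.45e-16. The low p-values of that setting thus came without larger differences, and their cause was not tested. Hlx has no value with at least 10 counts in every sample, and at 2 to 51 reads per sample its depth limits what can be read from it. In 30 groups of 4 samples no value lay far enough from the others to be singled out by Dixon's test.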
